A study of Mus musculus with 12 samples.

Results

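The genes that release, bind, carry and activate fatty acids were followed across 12 mouse livers. They are Lpl, Vldlr, Fabp1, Fabp2, Slc27a2, Slc27a4, Acsl3 and Acsl5, 8 in all. They were taken by gene symbol from the deposited RNA-seq table, which lists 15846 genes, and each of the 8 symbols matched 1 row. All 8 were among the 14736 genes that passed the filter on low counts. Livers came from C57BL/6 mice aged 5 months in 4 groups of 3 animals: Shp Hep-/- (KO below) on the HFCF diet, WT on HFCF, KO on chow and WT on chow. Shp is the nuclear receptor encoded by Nr0b2. The Cre line or promoter behind the deletion, the composition of HFCF and the time on diet are not given in the sources used here. The labels name no drug or other agent for any group.

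Long-chain fatty acids reach hepatocytes bound to albumin in blood or as triglyceride in lipoproteins. Lipoprotein lipase, encoded by Lpl, frees fatty acids from lipoprotein triglyceride, and the very-low-density-lipoprotein receptor, encoded by Vldlr, binds triglyceride-rich particles and takes them up. Inside the cell, fatty acid binding proteins (Fabp genes) hold fatty acids in solution, transport proteins of the Slc27a family aid their entry and carry acyl-CoA synthetase activity, and long-chain acyl-CoA synthetases (Acsl genes) attach them to coenzyme A, the step that commits them to oxidation or to lipid synthesis. Adult mouse liver is known for abundant Fabp1, whereas Lpl is known mainly from adipose tissue, muscle and macrophages, and Fabp2 from the small intestine.

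Libraries held 13967116 to 18324134 counts. Nr0b2, the targeted gene, lay between 0.210 and 1.01 CPM (read counts relative to library size, scaled between libraries by TMM) in the 6 KO livers, against 22.4 to 53.4 CPM in the 6 WT livers. Of 10 hepatocyte markers, 9 (all but Alb) were measured in the livers, at summed levels of 50909 to 52538 CPM (KO, HFCF), 42501 to 47190 CPM (WT, HFCF), 48742 to 59362 CPM (KO, chow) and 55120 to 57699 CPM (WT, chow). None of 8 skeletal and cardiac muscle markers was among the genes analysed here, and of 8 enterocyte markers only Apoa4, also made by liver, was. One library stood apart from its group, WT on HFCF replicate 1. The chi-square of its counts against replicates 2 and 3, divided by the degrees of freedom, was 32.2 and 34.4, where that between replicates 2 and 3 was 11.2. Values without it are given beside some of the results that include it, not beside all of them.

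The 8 genes did not move as a block. Lpl was higher in KO livers than in WT livers on both diets, Vldlr and Fabp2 were lower in KO livers on both diets, and Fabp1 and Slc27a4 were lower in KO livers on HFCF. On HFCF, Lpl and Fabp2 were higher than on chow in both genotypes, while Acsl3 was lower and Vldlr higher in WT livers. Slc27a2 and Acsl5 passed the threshold in no comparison. A gene was called here at an adjusted p under 0.05 from edgeR's quasi-likelihood test with Benjamini-Hochberg adjustment over all tested genes, and log2 fold changes carry standard errors (SE).

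Counts per comparison were read against the share of all tested genes that was called. For KO against WT on HFCF, 5 of the 8 were called, against 19.1% of tested genes, with 1 higher (10.6% of tested genes) and 4 lower (8.52%). For KO against WT on chow, 3 were called, against 15.5%, with 1 higher (9.72%) and 2 lower (5.82%). For HFCF against chow in WT, 4 were called, against 13.7%, with 3 higher (7.76%) and 1 lower (5.9%). For HFCF against chow in KO, 2 were called, against 2.65%, and both were higher (1.47%). The 3 genes called by genotype on both diets were Lpl, Vldlr and Fabp2, where 8.31% of tested genes were called on both. Lpl and Fabp2 were called by the diet in both genotypes, as were 1.33% of tested genes. Without any test, the groups compared did not overlap for 5 of the 8 by genotype on HFCF (34.2% of tested genes), 5 by genotype on chow (36.1%), 4 by diet in WT (31.1%) and 3 by diet in KO (24.4%). The 2 genotype comparisons share no liver with each other, and neither do the 2 diet comparisons, but each diet comparison shares a group with each genotype comparison. The median log2 fold change of the 8 genes was -0.22 for genotype on HFCF, -0.20 for genotype on chow, 0.27 for the diet in WT and 0.08 for the diet in KO, while the median over all tested genes was 0.02, 0.004, -0.003 and -2.6e-05 in the same comparisons.

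The difference between the diet effects of KO and WT was also tested for each gene. None of the 8 was called, against 0.794% of tested genes, by edgeR, and 0 were called by DESeq2 and by limma voom. At an unadjusted p under 0.05 from edgeR, 2 passed, Lpl and Fabp1. A diet effect of unequal size in the 2 genotypes was therefore not shown for any of them, and equal effects were not shown either.

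**Figure D1:**
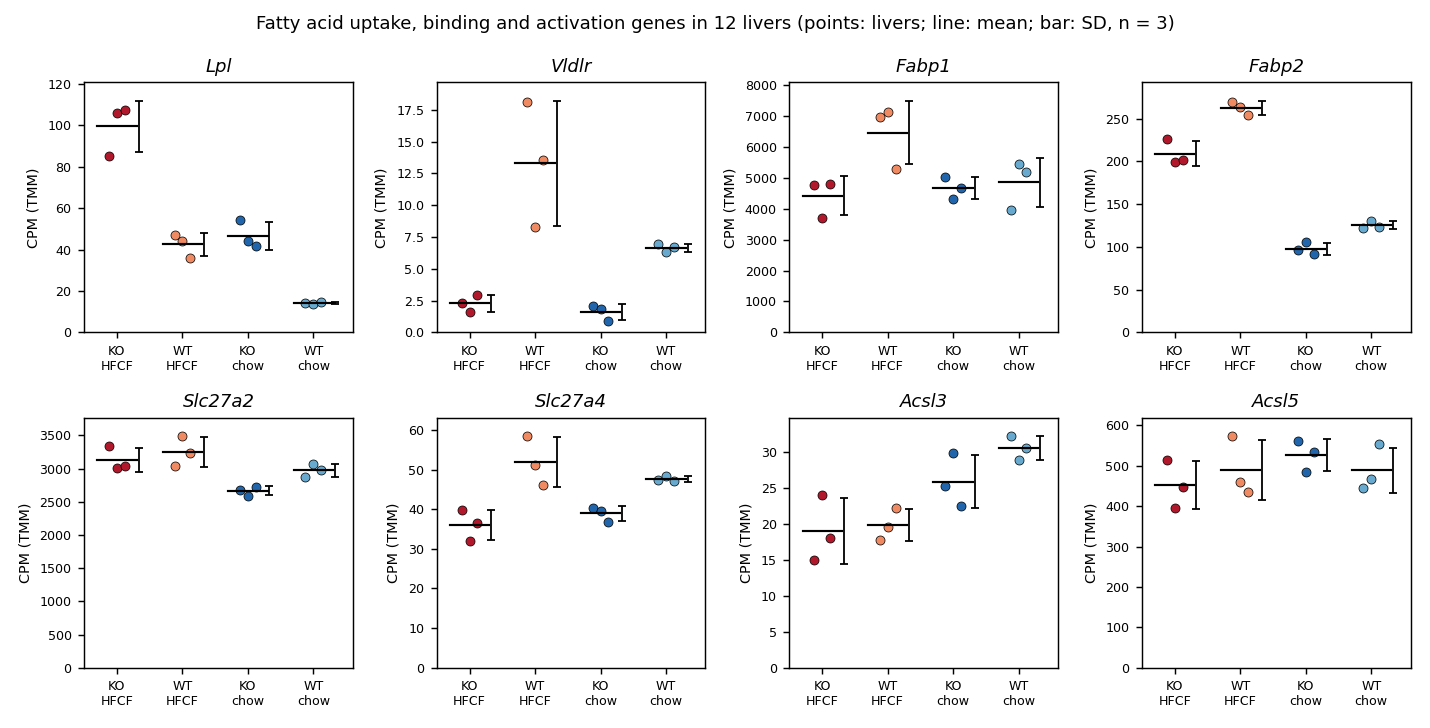
CPM of each of the 8 genes (y axes, each from 0) in the KO and WT livers on HFCF and chow (x axes). Points are livers, lines are means and bars are SDs of 3 livers. Lpl was highest in KO livers on HFCF, at 85.3 to 107 CPM, and Vldlr in WT livers on HFCF, at 8.28 to 18.1 CPM.

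**Figure D2:**
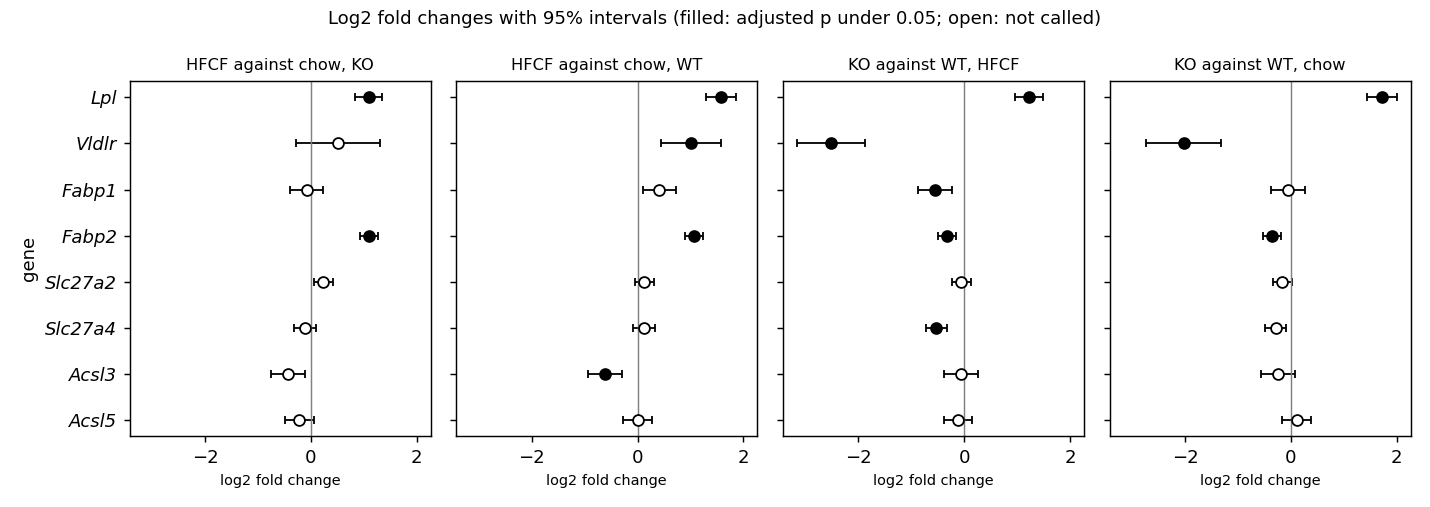
Log2 fold changes (x axes) of the 8 genes (y axis) in the diet and genotype comparisons, with 95% intervals from edgeR. Filled points passed an adjusted p of 0.05. Lpl lies to the right of 0 in all 4 comparisons, while Vldlr lies to the left of 0 in both genotype comparisons and to the right in both diet comparisons.

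Lpl (ENSMUSG00000015568, mm10 chr8:68880491-68907448, plus strand, protein coding) had 85.3, 106 and 107 CPM in KO livers on HFCF. It had 47.1, 44.2 and 36.1 CPM in WT livers on HFCF and 54.3, 44.1 and 41.5 CPM in KO livers on chow. WT livers on chow had 14.2, 13.5 and 14.8 CPM. Every KO liver on HFCF lay above all other livers and every WT liver on chow below all others, while WT livers on HFCF and KO livers on chow overlapped. The highest group mean was 7.03 times the lowest.

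On HFCF it averaged 99.5 ± 12.3 CPM in KO livers and 42.5 ± 5.66 CPM in WT livers (SD, n = 3 each), a 2.34-fold difference (95% interval 1.96 to 2.81; log2 fold change 1.23 ± 0.12 SE, edgeR adjusted p = 1.85e-05). The chow means were 46.6 ± 6.76 CPM in KO livers and 14.2 ± 0.637 CPM in WT livers, a 3.30-fold difference (2.71 to 4.01; log2 1.72 ± 0.13, edgeR adjusted p = 3.66e-06). HFCF raised it 3.00-fold over chow in WT livers (2.46 to 3.65; log2 1.58 ± 0.13, edgeR adjusted p = 1.06e-05) and 2.13-fold in KO livers (1.78 to 2.55; log2 1.09 ± 0.12, edgeR adjusted p = 0.00028). The diet effect in KO minus that in WT was -0.49 ± 0.18 on the log2 scale (95% interval -0.87 to -0.11), with an edgeR adjusted p of 0.233. Without WT on HFCF replicate 1 the genotype effect on HFCF was 1.31 and the diet effect in WT 1.50 on the log2 scale, both called.

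Macrophage markers moved with Lpl in part of these comparisons. The 6 Kupffer cell markers, all measured, summed to 566 to 598 CPM in KO livers on HFCF and 221 to 470 CPM in WT livers on HFCF. On chow they summed to 373 to 381 CPM in KO livers and 236 to 266 CPM in WT livers. For genotype, 5 of the 6 rose in KO livers on HFCF and 2 on chow. The 7 of 8 monocyte and macrophage markers measured summed to 297 to 327 CPM (KO, HFCF), 141 to 294 CPM (WT, HFCF), 252 to 284 CPM (KO, chow) and 149 to 178 CPM (WT, chow). For genotype, 3 of these 7 rose on HFCF and 5 on chow. The 6 markers of lipid-associated macrophages summed to 73.8 to 104 CPM (KO, HFCF), 57.3 to 124 CPM (WT, HFCF), 98.1 to 141 CPM (KO, chow) and 39.0 to 57.0 CPM (WT, chow), and 2 of them rose with genotype on HFCF and 6 on chow. Markers of some other cell types rose with genotype as well. Of 5 T cell markers tested, 4 rose on HFCF and 4 on chow, and of 4 B cell markers, 0 and 4. Of 8 stellate and fibroblast markers, 0 rose on HFCF and 3 on chow. Among 8 endothelial markers, 1 rose and 1 fell on HFCF and 0 were called on chow. Among the 9 hepatocyte markers, 2 rose and 1 fell on HFCF, and 0 rose and 2 fell on chow.

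For HFCF against chow in WT livers, 0 of the 6 Kupffer markers, 2 of the 7 monocyte and macrophage markers and 4 of the 6 lipid-associated macrophage markers rose (median log2 fold change 0.37, 0.38 and 1.26 over each list). In KO livers the same diet comparison gave 2, 0 and 0 of them (medians 0.54, 0.34 and -0.16). Of the 9 hepatocyte markers, 0 rose and 6 fell with HFCF in WT livers (median -0.49), and 0 were called in KO livers (median -0.12). In WT livers on HFCF, replicates 1, 2 and 3 had Kupffer sums of 470, 276 and 221 CPM, against 236 to 266 CPM in WT livers on chow. Their monocyte and macrophage sums were 294, 183 and 141 CPM, against 149 to 178 CPM in WT livers on chow. Sums of lipid-associated macrophage markers were 124, 69.1 and 57.3 CPM, against 39.0 to 57.0 CPM. Lpl in the same 3 livers was 47.1, 44.2 and 36.1 CPM, against 13.5 to 14.8 CPM in WT livers on chow. Of 8 adipocyte markers, 4 were measured, and they summed to 32.5 to 38.4 CPM (KO, HFCF), 155 to 254 CPM (WT, HFCF), 22.9 to 30.4 CPM (KO, chow) and 22.8 to 24.7 CPM (WT, chow), while Adipoq, Plin1, Lep and Retn were not analysed here. Of the 4 measured, 3 rose with HFCF in WT livers and 0 in KO livers, and by genotype 1 fell in KO livers on HFCF and 0 were called on chow. The rise of Fabp4, 1 of those 3, was not called without WT on HFCF replicate 1 (log2 0.42, edgeR adjusted p = 0.205). The part of macrophages, of adipocytes and of other cells in the Lpl differences was not tested. In whole liver, fewer cells of a type and less RNA per cell cannot be told apart.

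**Figure D3:**
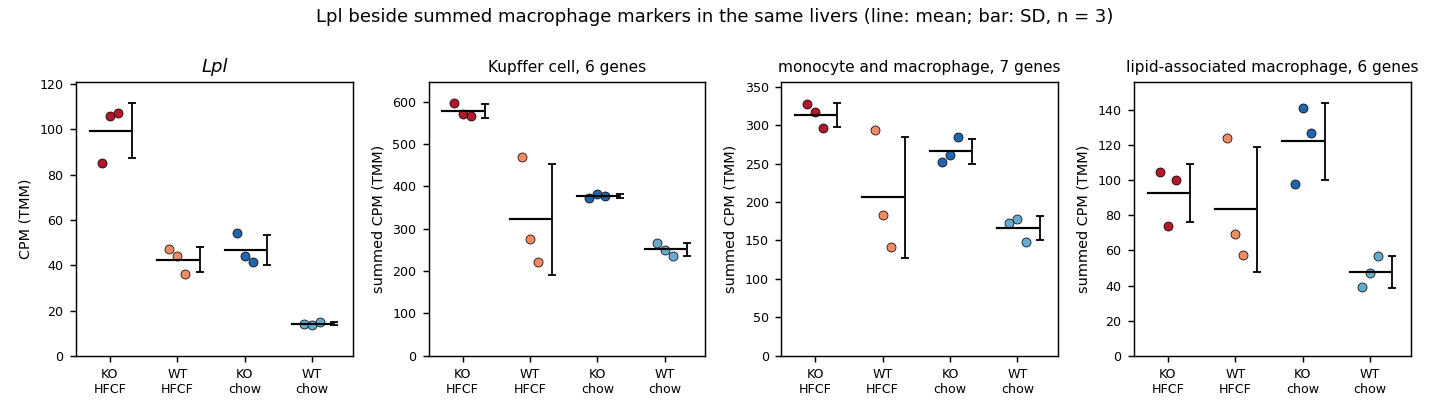
Lpl (left, CPM) beside the summed CPM of Kupffer cell, monocyte and macrophage, and lipid-associated macrophage markers (y axes) in the same livers, by group (x axes). Points are livers, lines are means and bars are SDs of 3 livers. The Kupffer sums of the KO livers on HFCF, 566 to 598 CPM, lie above those of every other liver, as does their Lpl.

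Vldlr (ENSMUSG00000024924, mm10 chr19:27216484-27254231, plus strand, protein coding) went the opposite way to Lpl between genotypes. It had 2.33, 1.61 and 2.93 CPM in KO livers on HFCF, from 32, 23 and 52 reads, and 18.1, 8.28 and 13.5 CPM in WT livers on HFCF, from 318, 119 and 210 reads. Livers on chow had 2.10, 1.86 and 0.882 CPM in the KO group and 6.94, 6.30 and 6.71 CPM in the WT group. Every KO liver lay below every WT liver, whatever the diet, and the KO groups overlapped each other. The highest group mean was 8.23 times the lowest, the widest span of the 8 genes.

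On HFCF, Vldlr averaged 2.29 ± 0.659 CPM in KO livers and 13.3 ± 4.91 CPM in WT livers (SD, n = 3 each). It was 5.76-fold lower in KO livers (log2 fold change -2.53 ± 0.30 SE, edgeR adjusted p = 8.12e-05), and the estimate was -2.24 without WT on HFCF replicate 1, still called. Means on chow were 1.62 ± 0.647 CPM in KO livers and 6.65 ± 0.322 CPM in WT livers, 4.07-fold lower in KO livers (log2 -2.03 ± 0.33, edgeR adjusted p = 0.00137). HFCF raised it 2.01-fold over chow in WT livers (95% interval 1.35 to 2.98; log2 1.01 ± 0.27, edgeR adjusted p = 0.0237). That call was lost without WT on HFCF replicate 1, the liver with the most Vldlr, where the estimate was 0.72 (log2) with an edgeR adjusted p of 0.101, and it was also lost without any single WT liver on chow (adjusted p 0.0585 to 0.0737). In KO livers the diet effect was 0.51 ± 0.37 on the log2 scale (95% interval -0.29 to 1.30; edgeR adjusted p = 0.513). The diet effect in KO minus that in WT was -0.50 ± 0.46 (interval -1.49 to 0.49; edgeR adjusted p = 0.715), an interval wide enough to hold no difference or one larger than the WT effect.

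The opposite genotype effects of Lpl and Vldlr show in their ratio within each liver, computed per gene length from the deposited FPKM. Lpl exceeded Vldlr by 54.2, 97.3 and 54.3 times in KO livers on HFCF and by 3.85, 7.89 and 3.95 times in WT livers on HFCF. On chow it exceeded Vldlr by 38.2, 35.0 and 69.6 times in KO livers and by 3.02, 3.17 and 3.26 times in WT livers. The ratios of KO livers and of WT livers did not overlap.

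Fabp1 (ENSMUSG00000054422, mm10 chr6:71199827-71205023, plus strand) and Fabp2 (ENSMUSG00000023057, mm10 chr3:122895072-122899506, plus strand) encode the liver and the intestinal fatty acid binding proteins, which are paralogs. By edgeR, Fabp2 was called by the diet in both genotypes and Fabp1 in neither, but their diet effects were not tested against each other. The 150 bases before their RefSeq starts (GRCm38.p6, plus strand, chr6:71199729-71199878 and chr3:122894922-122895071) are shown for this pair. A link between these letters and the diet effects was not tested. Capitals mark matches on either strand to the nuclear receptor half-site AGGTCA, to the direct repeat AGGTCANAGGTCA with at most 1 mismatch, or to TATAAA.
Fabp1: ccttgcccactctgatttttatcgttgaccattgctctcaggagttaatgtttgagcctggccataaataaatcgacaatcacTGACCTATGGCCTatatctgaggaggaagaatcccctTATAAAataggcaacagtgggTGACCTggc
Fabp2: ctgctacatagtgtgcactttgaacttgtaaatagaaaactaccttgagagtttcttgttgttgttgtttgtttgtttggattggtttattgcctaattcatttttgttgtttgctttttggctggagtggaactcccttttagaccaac
The Fabp1 window held a direct repeat on the minus strand 67 to 55 bases before the start, 1 half-site of which is an exact match, another exact half-site 9 to 4 bases before it, and TATAAA 30 to 25 bases before it. The Fabp2 window held none of these letters. The RefSeq start of Fabp1 lies inside the gene span given above, and so do its TATAAA and the half-site nearest that start. Among 32851 RefSeq promoter windows, which run from 250 bases before to 50 after the start and are longer than the stretches shown, 16.3% held the half-site, 0.554% the direct repeat with at most 1 mismatch, and 13.6% TATAAA. Promoter windows were matched for 7 of the 8 genes, all but Lpl. A match describes the letters and shows no binding.

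Fabp2 had 227, 199.8 and 201 CPM in KO livers on HFCF and 270.1, 264 and 254 CPM in WT livers on HFCF. On chow it had 95.8, 106 and 91.6 CPM in KO livers and 122, 130.4 and 124 CPM in WT livers. The 4 groups did not overlap: WT livers on HFCF were highest, then KO livers on HFCF, WT livers on chow and KO livers on chow. HFCF raised Fabp2 2.14-fold over chow in KO livers (95% interval 1.90 to 2.41; log2 1.10 ± 0.08 SE, edgeR adjusted p = 7.35e-06) and 2.10-fold in WT livers (1.87 to 2.36; log2 1.07 ± 0.08, edgeR adjusted p = 3.45e-06). By p, Fabp2 ranked 3rd of the 14736 tested genes for the diet in KO and 10th for the diet in WT. The diet effect in KO minus that in WT was 0.03 ± 0.11 on the log2 scale, with a 95% interval of -0.21 to 0.27 (edgeR adjusted p = 0.949).

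The genotype effect on Fabp2 was smaller than its diet effect and ran the other way. On HFCF it averaged 209 ± 15.03 CPM in KO livers and 263 ± 8.14 CPM in WT livers (SD, n = 3 each), 1.26-fold lower in KO livers (log2 -0.33 ± 0.08 SE, edgeR adjusted p = 0.00886). On chow it averaged 97.7 ± 7.20 CPM in KO livers and 125 ± 4.51 CPM in WT livers, 1.28-fold lower in KO livers (log2 -0.36 ± 0.08, edgeR adjusted p = 0.0083). Apoa4, the 1 enterocyte marker measured, lay at 1010 to 1825 CPM (KO, HFCF), 1221 to 4497 CPM (WT, HFCF), 555 to 1125 CPM (KO, chow) and 352 to 1185 CPM (WT, chow). Like Fabp2 it was called higher on HFCF than on chow in WT livers (log2 1.97), and it was called in neither genotype comparison nor by the diet in KO livers (log2 0.91). Vil1, Alpi, Lct, Sis, Cdx1, Cdx2 and Fabp6 were not analysed here, and the part of other cells in the Fabp2 values was not tested.

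Fabp1 was by far the more abundant of the pair. It had 4778, 3694 and 4793 CPM in KO livers on HFCF and 6985, 7131 and 5288 CPM in WT livers on HFCF. The chow values were 5039, 4302 and 4673 CPM in KO livers and 3962, 5449 and 5184 CPM in WT livers. The KO livers on HFCF all lay below the WT livers on HFCF, and the groups on chow overlapped. On HFCF it averaged 4422 ± 630.1 CPM in KO livers and 6468 ± 1025 CPM in WT livers (SD, n = 3 each), 1.46-fold lower in KO livers (log2 -0.55 ± 0.15 SE, edgeR adjusted p = 0.0188). That call was lost without KO on HFCF replicate 2 (log2 -0.46, edgeR adjusted p = 0.0634) and without WT on HFCF replicate 2 (log2 -0.47, edgeR adjusted p = 0.073). Without WT on HFCF replicate 1 the call was kept, close to the threshold (log2 -0.49, edgeR adjusted p = 0.0483).

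On chow the genotype effect on Fabp1 was -0.06 ± 0.15 on the log2 scale (edgeR adjusted p = 0.83). The diet effect was -0.08 ± 0.15 in KO livers (edgeR adjusted p = 0.834) and 0.41 ± 0.15 in WT livers (edgeR adjusted p = 0.0826). The difference between those diet effects, KO minus WT, was -0.49 ± 0.21 with a 95% interval of -0.94 to -0.04, and did not pass adjustment (edgeR adjusted p = 0.327).

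The transport proteins gave smaller differences. Slc27a4 (FATP4; ENSMUSG00000059316, mm10 chr2:29802634-29817522, plus strand) had 39.7, 32.1 and 36.4 CPM in KO livers on HFCF and 58.4, 51.2 and 46.0 CPM in WT livers on HFCF. Its chow values were 40.3, 39.6 and 36.9 CPM in KO livers and 47.4, 48.3 and 47.0 CPM in WT livers. All 6 KO livers lay below all 6 WT livers, while the diets overlapped within each genotype. On HFCF it averaged 36.1 ± 3.80 CPM in KO livers and 51.9 ± 6.22 CPM in WT livers (SD, n = 3 each), 1.44-fold lower in KO livers (log2 -0.53 ± 0.09 SE, edgeR adjusted p = 0.00174). Without WT on HFCF replicate 1 that estimate was -0.43 (edgeR adjusted p = 0.0051), and the diet effect in WT livers was 0.03. The chow means of Slc27a4 were 38.9 ± 1.82 CPM in KO livers and 47.6 ± 0.686 CPM in WT livers (log2 -0.29 ± 0.09), and the edgeR adjusted p of 0.0534 missed the threshold. The same difference was called with DESeq2 (adjusted p = 0.0437). Diet effects were -0.11 ± 0.10 in KO livers and 0.12 ± 0.09 in WT livers on the log2 scale, neither called, and their difference of -0.24 ± 0.13 had an edgeR adjusted p of 0.488.

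Slc27a2 (FATP2, also a very-long-chain acyl-CoA synthetase; ENSMUSG00000027359, mm10 chr2:126552407-126588243, plus strand) had 3344, 3012 and 3039 CPM in KO livers on HFCF and 3038, 3486 and 3237 CPM in WT livers on HFCF. On chow it had 2674, 2590.0 and 2725 CPM in KO livers and 2871, 3070.0 and 2977 CPM in WT livers. The KO livers on chow lay below all others and the remaining groups overlapped. No comparison was called, with log2 fold changes between -0.16 and 0.23. The widest of them, HFCF against chow in KO livers, was 1.18-fold (95% interval 1.04 to 1.33; edgeR adjusted p = 0.144), and DESeq2 called it at an adjusted p of 0.0362. In all of these comparisons the 95% interval lay within 1.33-fold in either direction.

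The acyl-CoA synthetases showed 1 called change. Acsl3 (ENSMUSG00000032883, mm10 chr1:78657825-78706987, plus strand), known as a synthetase of the endoplasmic reticulum and of lipid droplets, had 15.04, 24.1 and 18.0 CPM in KO livers on HFCF and 17.7, 19.6 and 22.2 CPM in WT livers on HFCF. In chow-fed mice it had 25.2, 29.8 and 22.6 CPM in KO livers and 32.2, 28.9 and 30.6 CPM in WT livers. Every WT liver on HFCF lay below every WT liver on chow, while the KO groups overlapped through KO on HFCF replicate 2. In WT livers it averaged 19.8 ± 2.22 CPM on HFCF and 30.5 ± 1.65 CPM on chow (SD, n = 3 each), 1.54-fold lower on HFCF (log2 -0.62 ± 0.15 SE, edgeR adjusted p = 0.0146). That call was lost without WT on HFCF replicate 1 (edgeR adjusted p = 0.0565) and without WT on chow replicate 1 (edgeR adjusted p = 0.0592).

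In KO livers, Acsl3 averaged 19.0 ± 4.59 CPM on HFCF and 25.9 ± 3.67 CPM on chow (log2 -0.44 ± 0.15), which was not called (edgeR adjusted p = 0.132). It was called without KO on HFCF replicate 2, where the estimate was -0.65 (log2; edgeR adjusted p = 0.0396). The diet effect in KO minus that in WT was 0.18 ± 0.21 (95% interval -0.27 to 0.64; edgeR adjusted p = 0.789). Genotype effects were -0.06 ± 0.15 on HFCF and -0.24 ± 0.15 on chow, neither called. Utp14b, a gene on the same strand within the Acsl3 span, was called in no comparison, and reads in the shared stretch may have been split between them.

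Acsl5 (ENSMUSG00000024981, mm10 chr19:55253369-55296627, plus strand), a synthetase known from mitochondria and endoplasmic reticulum, had 513, 396 and 447 CPM in KO livers on HFCF and 573, 461 and 434 CPM in WT livers on HFCF. On chow it had 560.3, 483 and 534 CPM in KO livers and 445, 466 and 552 CPM in WT livers. All 4 groups overlapped. Its log2 fold changes ran between -0.22 and 0.11 with SEs of 0.13, and the smallest edgeR adjusted p was 0.392, for HFCF against chow in KO livers (0.859-fold, 95% interval 0.712 to 1.04). Without WT on HFCF replicate 1, the diet effect in WT livers was -0.13, against 0.003 with it, and the genotype effect on HFCF was 0.01, against -0.11 with it, none of them called. Genes on the opposite strand overlap Acsl5 (Zdhhc6), Slc27a2 and Fabp2. Whether counting used strand is not given in the sources used here, and without it their reads could not be told apart. Zdhhc6 was called in no comparison.

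Levels per gene length, as the deposited FPKM, placed the 8 genes far apart. Fabp1 averaged 7768 FPKM in KO livers on HFCF, 11830.2 FPKM in WT livers on HFCF, 8637 FPKM in KO livers on chow and 8689 FPKM in WT livers on chow, and ranked between 4th and 8th of all genes in every liver. Slc27a2 followed at group means of 726 to 878 FPKM, then Fabp2 at 103 to 276 FPKM and Acsl5 at 124 to 152 FPKM. By group mean, Fabp2 stood above Acsl5 on HFCF and below it on chow, in both genotypes. Slc27a4 (7.94 to 11.9 FPKM) and Acsl3 (5.15 to 8.39 FPKM) were lower. Lpl averaged 14.2 FPKM in KO livers on HFCF, 6.31 FPKM in WT livers on HFCF, 6.99 FPKM in KO livers on chow and 2.06 FPKM in WT livers on chow. Per gene length, the level of Lpl stood above Slc27a4 and Acsl3 in KO livers on HFCF and below both in WT livers on chow. Vldlr was the lowest of the 8 in every group, at 0.163 to 1.34 FPKM.

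**Figure D4:**
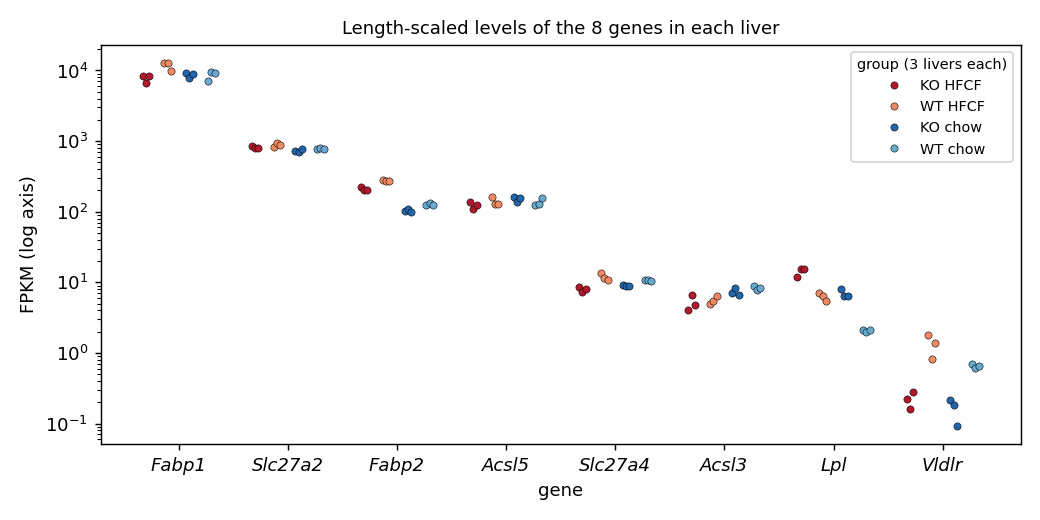
FPKM of the 8 genes (x axis) in each of the 12 livers on a log axis (y axis). The genes run in the order Fabp1, Slc27a2, Fabp2, Acsl5, Slc27a4, Acsl3, Lpl and Vldlr, which is not the order of level in every group. Points are livers, coloured by group. Fabp1 lies at group means of 7768 to 11830.2 FPKM and Vldlr at 0.163 to 1.34 FPKM.

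Within their families, FPKM gave the share of each member in the summed RNA level. Fabp1 made up 97.0% (KO, HFCF), 97.5% (WT, HFCF), 98.6% (KO, chow) and 98.3% (WT, chow) of the 5 Fabp genes listed, and Fabp2 2.66%, 2.30%, 1.19% and 1.48% in the same groups. Slc27a2 gave 59.6% to 62.6% of the 5 Slc27a genes listed, most of the rest being Slc27a5, the bile acyl-CoA synthetase, at 36.4% to 39.2%. Acsl1 gave 67.9% to 72.3% of the 4 Acsl genes listed, Acsl5 24.4% to 27.6% and Acsl3 0.991% to 1.52%. Of the 3 extracellular lipases Lipc, Lipg and Lpl, the share of Lpl was 18.1% (KO, HFCF), 6.67% (WT, HFCF), 9.23% (KO, chow) and 2.62% (WT, chow), and hepatic lipase Lipc held 77.1% to 85.0%. These shares describe RNA and say nothing of protein.

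For 5 of the genes called in some comparison, the 3 genes with the most similar profile were found by the root mean square difference of centred log2 CPM over the 12 livers, among 11589 genes. For Lpl these were Oas3 (0.302), Mnda (0.309) and Oas2 (0.318), where the spread of Lpl itself was 1.01 on the same log2 scale. For Vldlr, with a spread of 1.24, they were Cd36 (0.471), Treh (0.472) and Slc22a3 (0.474). Slc27a4 was closest to Ndufb8, Uqcr11 and Pgrmc1, Acsl3 to Tasp1, Ikbkg and Upf2, and Fabp1 to Pgk1, Cadm3 and Pex14. The livers share diet and genotype, which these profiles follow.

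Other genes of the same steps were counted in lists that left out the 8 genes. Over 77 tested genes in 6 lists, 11 rose and 21 fell in KO against WT livers on HFCF, and 9 rose and 9 fell in KO against WT livers on chow. For HFCF against chow, 3 rose and 2 fell in KO livers, and 17 rose and 6 fell in WT livers. For the diet effect in KO minus that in WT, 0 were higher and 3 lower: Pcsk6, Acbd4 and Aacs. Each list is given below by its counts and its median log2 fold change, to be read beside the shares and the near-zero medians of all tested genes above.

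The list of lipoprotein lipase partners held genes such as its activators, inhibitors and maturation factors, and also the other lipases Lipc, Lipg and Lipa. Of 17 tested, 0 rose and 6 fell in KO against WT livers on HFCF (median -0.28), and 0 rose and 2 fell on chow (median -0.13). With the diet, 0 rose and 1 fell in KO livers on HFCF against chow (median -0.04), and 5 rose and 1 fell in WT livers (median 0.12). The 1 that fell in KO livers was Lipg (log2 -1.22 ± 0.30, edgeR adjusted p = 0.0455), a call lost in 7 of 12 fits that left out 1 liver. The 1 that fell in WT livers was Angptl4, a secreted inhibitor of lipoprotein lipase (log2 -0.72 ± 0.16, edgeR adjusted p = 0.0103). Apoc2, the lipase's cofactor, rose with HFCF in WT livers, to 448 ± 123 CPM against 244 ± 13.5 CPM on chow (log2 0.88 ± 0.15, edgeR adjusted p = 0.00241). Pcsk6, a proprotein convertase, had a diet effect in KO minus that in WT of -0.58 ± 0.11 (edgeR adjusted p = 0.0341), and this call was lost in 8 of 12 fits that left out 1 liver.

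Other lipoprotein receptors and their regulators gave calls in the opposite direction to Vldlr between genotypes. Of 16 tested, 6 rose and 0 fell in KO against WT livers on HFCF (median 0.07), and 6 rose and 0 fell on chow (median 0.16). On HFCF against chow, 1 rose and 1 fell in KO livers (median -0.02), and 2 rose and 3 fell in WT livers (median 0.06). Lrp2 (megalin), a large endocytic receptor, averaged 18.0 ± 4.06 CPM in KO livers on HFCF and 1.35 ± 0.0223 CPM in WT livers on HFCF (log2 3.72 ± 0.24 SE, edgeR adjusted p = 4.45e-07). The chow means of Lrp2 were 14.97 ± 3.67 CPM in KO livers and 1.95 ± 0.439 CPM in WT livers (log2 2.94 ± 0.23, edgeR adjusted p = 4.9e-06). Scarb1, the receptor for high-density lipoprotein, rose in KO livers on HFCF (log2 0.82 ± 0.09, edgeR adjusted p = 3.84e-05) and on chow (log2 0.60 ± 0.09, edgeR adjusted p = 0.000685).

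Of 9 other genes of fatty acid uptake, 1 rose and 2 fell in KO against WT livers on HFCF (median -0.11), and 0 rose and 2 fell on chow (median -0.16). By diet (HFCF against chow), 0 were called in KO livers (median 0.16), and 1 rose and 0 fell in WT livers (median 0.11). Cd36, the fatty acid translocase, averaged 104 ± 15.1 CPM in KO livers on HFCF and 459.8 ± 143 CPM in WT livers on HFCF (log2 -2.15 ± 0.17 SE, edgeR adjusted p = 3.19e-06). On chow it averaged 71.9 ± 1.97 CPM in KO livers and 166 ± 11.1 CPM in WT livers (log2 -1.21 ± 0.17, edgeR adjusted p = 0.000504). HFCF raised Cd36 over chow in WT livers (log2 1.47 ± 0.17, edgeR adjusted p = 0.000126), and its estimate in KO livers, 0.53 ± 0.17, was not called (edgeR adjusted p = 0.108). Slc27a1, a transport protein of the family that holds Slc27a2 and Slc27a4, fell in KO livers on HFCF (log2 -0.82 ± 0.14, edgeR adjusted p = 0.0015) and on chow (log2 -1.31 ± 0.15, edgeR adjusted p = 0.000109). For Cd36 the diet effect in KO minus that in WT was -0.94 ± 0.24 (edgeR adjusted p = 0.0826).

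Of 10 other genes of fatty acid and acyl-CoA binding, 2 rose and 2 fell in KO against WT livers on HFCF (median -0.02), and 1 rose and 1 fell on chow (median -0.05). The diet (HFCF against chow) gave 0 calls in KO livers (median 0.04), and 2 rose and 0 fell in WT livers (median 0.07). Of those 2, Fabp4 (log2 0.97 ± 0.30 SE, edgeR adjusted p = 0.0436) lost its call in 8 of 12 fits that left out 1 liver. Those that fell in KO against WT livers on HFCF were Acbd4, an acyl-CoA binding protein (log2 -0.75 ± 0.07 SE, edgeR adjusted p = 6.89e-06), and Dbi, the main cytosolic one (log2 -0.50 ± 0.13, edgeR adjusted p = 0.016). Those that rose were Fabp7 (log2 0.94 ± 0.21, edgeR adjusted p = 0.00712) and Fabp5 (log2 1.16 ± 0.35, edgeR adjusted p = 0.0322), paralogs of Fabp1 known from brain and from skin and macrophages. The call of Dbi was lost without KO on HFCF replicate 2 (log2 -0.42, edgeR adjusted p = 0.0565) or WT on HFCF replicate 1 (log2 -0.33, edgeR adjusted p = 0.0548). The call of Fabp5 was lost without KO on HFCF replicate 3 (log2 0.85, edgeR adjusted p = 0.158), WT on HFCF replicate 1 (log2 1.14, edgeR adjusted p = 0.0694) or WT on HFCF replicate 3 (log2 0.87, edgeR adjusted p = 0.101). For Acbd4 the diet effect in KO minus that in WT was -0.52 ± 0.09 (edgeR adjusted p = 0.0341), a call lost in 8 of 12 fits that left out 1 liver.

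Of 12 other acyl-CoA synthetases, 2 rose and 5 fell in KO against WT livers on HFCF (median -0.29), and 2 rose and 3 fell on chow (median -0.07). Acsm3, a medium-chain synthetase, averaged 192 ± 2.04 CPM in KO livers on HFCF and 339.9 ± 23.3 CPM in WT livers on HFCF (log2 -0.82 ± 0.07 SE, edgeR adjusted p = 8.14e-06), and fell also on chow (log2 -0.59 ± 0.07, edgeR adjusted p = 0.000212). Acss3, a short-chain synthetase of mitochondria, fell in KO livers on HFCF (log2 -1.98 ± 0.21, edgeR adjusted p = 2.96e-05) and on chow (log2 -1.36 ± 0.21, edgeR adjusted p = 0.000847). For HFCF against chow in WT livers 5 rose and 0 fell (median 0.21), among them Acsm5 (log2 0.72 ± 0.07, edgeR adjusted p = 3e-05), and in KO livers 1 rose and 0 fell (median 0.05). For Aacs, a cytosolic acetoacetyl-CoA synthetase, the diet effect in KO minus that in WT was -2.68 ± 0.58 (edgeR adjusted p = 0.0497), a call lost in 10 of 12 fits that left out 1 liver and in 4 of 7 other alternatives. Acsl1, the most abundant long-chain member, was called in none of the diet or genotype comparisons.

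Acyl-CoA thioesterases undo the activation step. The list of them used here also held Baat, known as a bile acid conjugating enzyme. Of 13 tested, 0 rose and 6 fell in KO against WT livers on HFCF (median -0.69), and 0 rose and 1 fell on chow (median -0.24). The 1 that fell on chow was Baat (log2 -0.33 ± 0.08 SE, edgeR adjusted p = 0.0182), a call lost in 3 of 12 fits that left out 1 liver. Between HFCF and chow, 1 rose and 0 fell on HFCF in KO livers (median -0.09), and 2 rose and 2 fell in WT livers (median 0.28). The 2 that fell in WT livers were Them4 (log2 -0.41, edgeR adjusted p = 0.0204) and Baat (log2 -0.30, edgeR adjusted p = 0.0324). Their calls were lost in 3 and 4 of 12 fits that left out 1 liver, in both cases also without WT on HFCF replicate 1. Acot11 averaged 10.4 ± 1.17 CPM in KO livers on HFCF and 20.3 ± 3.77 CPM in WT livers on HFCF (log2 -0.97 ± 0.15 SE, edgeR adjusted p = 0.00047). HFCF raised it over chow in KO livers (log2 1.26 ± 0.16, edgeR adjusted p = 0.00107) and in WT livers (log2 2.31 ± 0.16, edgeR adjusted p = 2.89e-06). Acot13 was lower in KO livers on HFCF (log2 -0.69 ± 0.11, edgeR adjusted p = 0.000697).

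Of 25 transcription regulators linked to these genes, 1 rose and 3 fell in KO against WT livers on HFCF (median -0.11), and 2 rose and 2 fell on chow (median -0.04). With HFCF against chow, 1 rose and 1 fell in KO livers (median -0.04), and 4 rose and 3 fell in WT livers (median -0.03). Pparg, the nuclear receptor of fat storage, averaged 5.01 ± 2.30 CPM in KO livers on HFCF and 28.0 ± 6.93 CPM in WT livers on HFCF (log2 -2.49 ± 0.27 SE, edgeR adjusted p = 4.48e-05). Pparg means on chow were 3.78 ± 1.32 CPM in KO livers and 16.3 ± 0.350 CPM in WT livers (log2 -2.11 ± 0.29, edgeR adjusted p = 0.000405). Ppara, the nuclear receptor of fatty acid oxidation, was lower in KO livers on HFCF (log2 -0.43 ± 0.09, edgeR adjusted p = 0.00406). Srebf1, which drives fatty acid synthesis, rose with HFCF in KO livers (log2 1.07 ± 0.16, edgeR adjusted p = 0.00236) and in WT livers (log2 2.27 ± 0.16, edgeR adjusted p = 2.89e-06). The effect in KO minus that in WT was -1.20 ± 0.22 (edgeR adjusted p = 0.0341), a call lost in 7 of 12 fits that left out 1 liver.

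**Figure D5:**
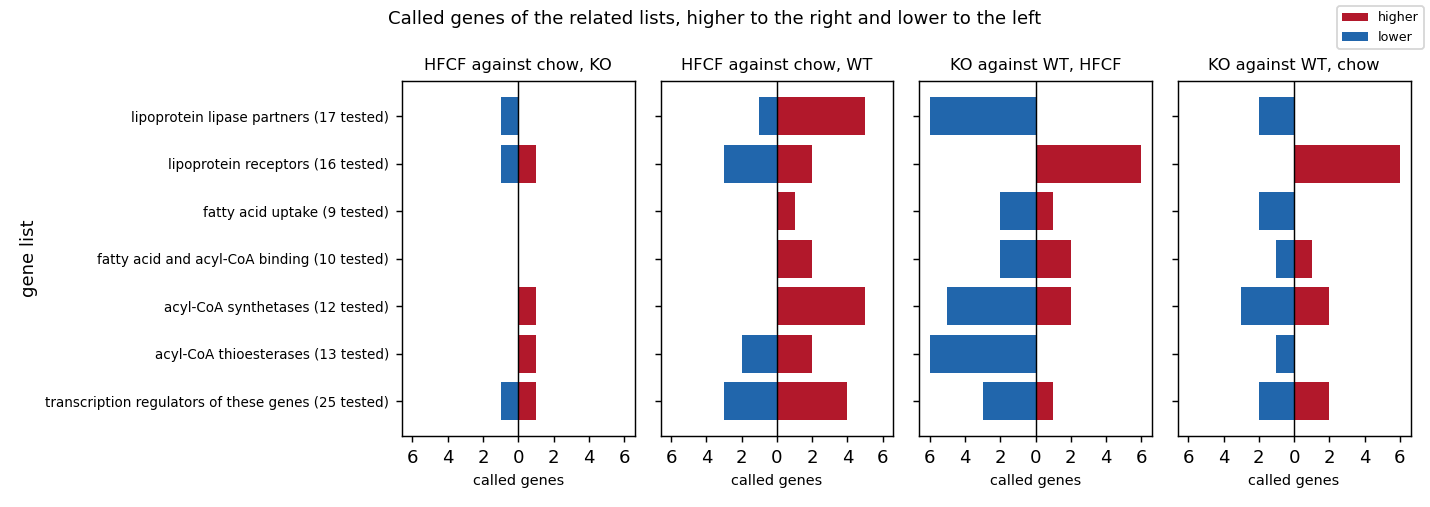
Number of called genes (x axes) in each related gene list (y axis) for the diet and genotype comparisons, with genes higher in the first-named group to the right of 0 and lower ones to the left. In KO against WT livers on HFCF, 6 of 17 genes in the list of lipoprotein lipase partners and 6 of 13 in that of thioesterases were lower. In the list of receptors, 6 of 16 were higher.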

How the data were processed

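Each library has a column of raw read counts by Ensembl gene, as deposited and per the file headers. A column of FPKM beside it was made by the authors and equals the count over gene length and over a library total. The submitters' processing notes name mm10, and the labels' protocols a stranded kit with ribosomal RNA removal. Aligner, counter and its strand setting are not given in the sources used here. Every gene listed reached 10 counts in some library. Start positions, which the table counts from 0, were shifted by 1.

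Groups came from the labels. Genes were kept by filterByExpr (minimum count 10, minimum total 15), which kept 14736 and dropped 1110. After TMM scaling, edgeR 4.0.16 (R 4.3.3; glmQLFit and glmQLFTest) was run on all 12 libraries with 4 group means. The common biological coefficient of variation was 0.119. SE is the log2 fold change over the root of F. Overlap of groups was read from CPM per liver. FPKM was used for levels between genes, never in a test. All libraries differed by more than sampling noise. Replicate numbers paired no livers: deviations of same-numbered livers correlated at -0.148 to 0.167 and of others at -0.144 to 0.152. The pipeline was tested on simulated data.

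All 8 genes are named in every comparison. From each related list, up to 4 tested genes with the lowest adjusted p per comparison could be named, and examples among them were chosen after their values were seen; Acsl1 was also named after its values were seen. Some results that these rules name are not reported here. The 8 genes, the lists and the tests were chosen with earlier results of these data known. Alternatives were other scalings (RLE, upper quartile), no filter, a minimum count of 50, a replicate block, only the groups compared, DESeq2 1.42.0, limma voom 3.58.1 and leaving out each liver. Figures used Python 3.11.15, pandas 2.3.3 and matplotlib 3.10.9.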

Additional observations from a re-analysis of the deposited data

How the results depend on the processing

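Over 792 refits of the 8 genes' results, 757 kept their direction and side of the threshold, 8 lost a call, 13 gained one and 14 turned sign, none of them a called change. The calls of Lpl and Fabp2 in all 4 comparisons, of Vldlr by genotype on both diets and of Slc27a4 on HFCF held in every alternative run. Leaving out 1 liver moved the number of the 8 called to between 4 and 5 for genotype on HFCF, 3 and 4 for genotype on chow, 2 and 5 for the diet in WT (4 with all livers) and 2 and 3 for the diet in KO, and to 0 for the difference of diet effects. It moved the number of all genes called to between 2042 and 2834 for genotype on HFCF (2814 with all livers), 1152 and 2788 on chow (2289), 1100 and 2264 for the diet in WT (2013), 157 and 776 in KO (390), and 11 and 136 for the difference (117). The diet in KO gave 603 genes when its own groups were fitted alone and 653 with DESeq2, which gave 341 for the difference; the cause was not tested. Signs turned on leaving out 1 liver for Acsl3 by genotype on HFCF (-0.29 to 0.066) and its difference of diet effects (-0.039 to 0.33), Acsl5 by genotype on HFCF (-0.23 to 0.013) and by diet in WT (-0.13 to 0.10), Fabp1 by genotype on chow (-0.19 to 0.0198) and by diet in KO (-0.15 to 0.028), and the difference for Fabp2 (-0.022 to 0.089). Acsl5 by diet in WT also turned with the replicate block (-0.0049) and limma voom (-0.0020). Slc27a4 on chow was called with RLE scaling (adjusted p = 0.0441), no filter (0.0461), its own groups alone (0.0194) and DESeq2 (0.0437), and Fabp1 by diet in WT with DESeq2 (0.0307). The replicate numbers paired no livers, and the replicate block gave 5, 4, 4 and 2 of the 8 genes for genotype on HFCF, genotype on chow, diet in WT and diet in KO, the added call being Slc27a4 on chow (0.0437). Of 1595 refits of the related genes' calls, 150 lost the call and 0 turned sign. Vldlr rested on 14 to 52 reads in KO livers.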
